A study of Mus musculus with 2 samples.

Results

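Cycling lymphoid cells were the 136 cells, of 10159 in all, that the authors' deposited clustering placed in cluster 10 and that were selected on fewer than 50 unique molecular identifiers (UMIs, the barcodes that count single transcripts) of Cst3 and H2-Aa added together. Cst3 (cystatin C) and H2-Aa (an MHC class II chain) are abundant in antigen-presenting cells. The limit was used to set lymphoid cells apart from the 160 other cells of the same cluster, and the separation was not complete. The cells came from 2 single-cell RNA sequencing libraries, 1 per diet, so no difference between diets has a replicate and no test was possible. Both libraries came from C57BL/6 mice of wild-type genotype and held CD45+ leukocytes of adipose tissue that intravenous labelling had marked as tissue-resident. The control mice ate chow and the others a ketogenic diet (KD), which is rich in fat and poor in carbohydrate, for 1 week. The series title names visceral adipose tissue and γδ T cells, and the sample titles call the mice adult. Their exact age, their sex and the number of animals pooled per library are not given in the sources used here. Of the cycling lymphoid cells, 43 came from the chow library and 93 from the ketogenic library.

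Lymphocytes that divide in a tissue first copy their DNA in S phase, using replication factors, nucleotide-making enzymes and new histones, and then separate the copies in mitosis with cyclin B, kinesins and kinetochore proteins. The replication genes are classical targets of E2F transcription factors, which the retinoblastoma protein holds back until D-type cyclins with CDK4 or CDK6 release them. The mitotic genes are switched on later through the MuvB complex with B-MYB and FOXM1, which acts at the cell cycle homology region (CHR) of their promoters, often beside CCAAT boxes bound by NF-Y. Adipose tissue holds resident T cells, natural killer (NK) cells and group 2 innate lymphoid cells (ILC2), which can renew by division in place.

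The promoters of highly detected members of both gene programs are shown because the division into a replication and a mitosis program underlies the results on phase below. Each is the 250 bases upstream of the gene start on the gene's own strand, from RefSeq on GRCm38.p6, and each is among the most detected genes of its list whose window held the letters of its program. Capitals mark TTTGAA (the core of the CHR), CCAAT, and 4 spellings of the E2F site (TTTGGCGC, TTTCCCGC, TTTGGCGG and TTTCGCGC), all on either strand, and neighbouring matches can overlap. Top2a (DNA topoisomerase II alpha, chr11:99024190-99024439, minus strand) and Ube2c (a ubiquitin-conjugating enzyme of the anaphase-promoting complex, chr2:164769679-164769928, plus strand) are mitotic genes. Mcm7 (chr5:138171884-138172133, minus strand, 1 of 2 promoters in the table) and Mcm6 (chr1:128359706-128359955, minus strand) encode subunits of the replicative helicase.
Top2a: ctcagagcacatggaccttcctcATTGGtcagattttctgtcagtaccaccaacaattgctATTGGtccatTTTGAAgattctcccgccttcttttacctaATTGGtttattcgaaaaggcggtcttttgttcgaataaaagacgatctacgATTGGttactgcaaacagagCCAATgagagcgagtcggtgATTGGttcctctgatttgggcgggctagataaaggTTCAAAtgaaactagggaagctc
Ube2c: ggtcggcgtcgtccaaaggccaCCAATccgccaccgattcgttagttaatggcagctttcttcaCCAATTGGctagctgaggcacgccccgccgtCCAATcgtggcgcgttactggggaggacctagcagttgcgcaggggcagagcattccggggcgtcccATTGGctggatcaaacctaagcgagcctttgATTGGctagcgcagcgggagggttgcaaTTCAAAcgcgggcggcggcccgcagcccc
Mcm7: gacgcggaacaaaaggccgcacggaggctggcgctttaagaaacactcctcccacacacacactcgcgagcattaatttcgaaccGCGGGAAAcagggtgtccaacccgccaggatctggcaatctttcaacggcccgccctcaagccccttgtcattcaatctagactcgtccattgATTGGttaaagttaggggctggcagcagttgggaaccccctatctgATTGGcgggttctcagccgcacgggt
Mcm6: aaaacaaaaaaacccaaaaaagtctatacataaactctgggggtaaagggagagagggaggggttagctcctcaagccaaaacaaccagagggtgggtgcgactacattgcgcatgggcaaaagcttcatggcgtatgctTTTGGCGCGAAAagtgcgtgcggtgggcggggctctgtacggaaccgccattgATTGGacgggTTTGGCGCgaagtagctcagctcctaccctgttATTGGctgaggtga

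The Top2a window held 2 copies of TTTGAA and 6 of CCAAT, and the Ube2c window 1 and 6. The Mcm7 window held 1 E2F spelling and the Mcm6 window 3, and both held 2 copies of CCAAT. Over the replication list, 32 of 38 genes had a promoter in the table, and 11 of these (34.4%) held an E2F spelling, against 2 of 49 mitosis genes (4.08%) and 2.26% of the 27025 genes with a promoter. TTTGAA was found in 17 of 49 mitosis genes (34.7%), 4 of 32 replication genes (12.5%) and 18.3% of all genes. CCAAT was found in 73.5% of the mitosis genes, 65.6% of the replication genes and 37.5% of all. A match of letters describes the window and shows no binding.

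The label was checked against its markers. Stmn1 (stathmin, a tubulin-binding protein of dividing cells) was detected in all 43 chow and all 93 ketogenic cells. Mki67 (the proliferation antigen Ki-67) was detected in 79.1% of the chow and 83.9% of the ketogenic cells, and Top2a in 86.0% of the cells of either library. At least 3 UMIs of Mki67, Top2a and Birc5 (survivin, a mitotic regulator) together were present in 38 of 43 chow cells (88.4%, exact 95% interval 74.9 to 96.1) and in 82 of 93 ketogenic cells (88.2%, 79.8 to 93.9). Only 1 chow and 2 ketogenic cells held none of these 3 genes. Cd3e (a chain of the T cell receptor complex) was detected in 44.2% and 65.6% of the cells. All intervals here and below are 95% intervals and cover counting error only, not differences between animals. Intervals of UMI counts and their ratios take each UMI as independent, so they also leave out the spread between cells.

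The 10 genes that led the 136 cells over all other clustered cells were Hist1h2ap, Stmn1, 2810417H13Rik (PCNA-associated factor), Birc5, Top2a, Ube2c, Rrm2, Nusap1, Mki67 and Hmgb2. The cells were clustered on expression, so the level of these genes is a description of the set. Hist1h2ap stood at 2116 CPM (UMIs scaled to the same total in each library) under chow and 1245 CPM under KD, a log2 ratio of -0.76, and none of the 10 differed 2-fold between the libraries. Hmgb2, a chromatin protein of dividing cells, stood at 4368 and 4134 CPM.

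The limit of 50 UMIs fell at the upper edge of a sparse stretch. From 20 to below 50 UMIs lay 3 chow cells and 1 ketogenic cell, and from 50 to below 100 lay 15 and 4. The cells just inside it held 18, 24, 30, 40 and 48 UMIs of Cst3 and H2-Aa, and those just outside 50, 50, 57, 57 and 62. Of the members, 33 chow and 80 ketogenic cells held fewer than 10 such UMIs. Transcripts of the T cell, NK and ILC2 lists had a median of 79.0 per 10000 UMIs in the chow cells (range 23.7 to 245) and 97.8 in the ketogenic cells (1.97 to 399). In the other cells of cluster 10 the medians were 24.5 (9.09 to 61.4) and 17.6 (2.97 to 59.4) per 10000, so the ranges overlapped.

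**Figure D1:**
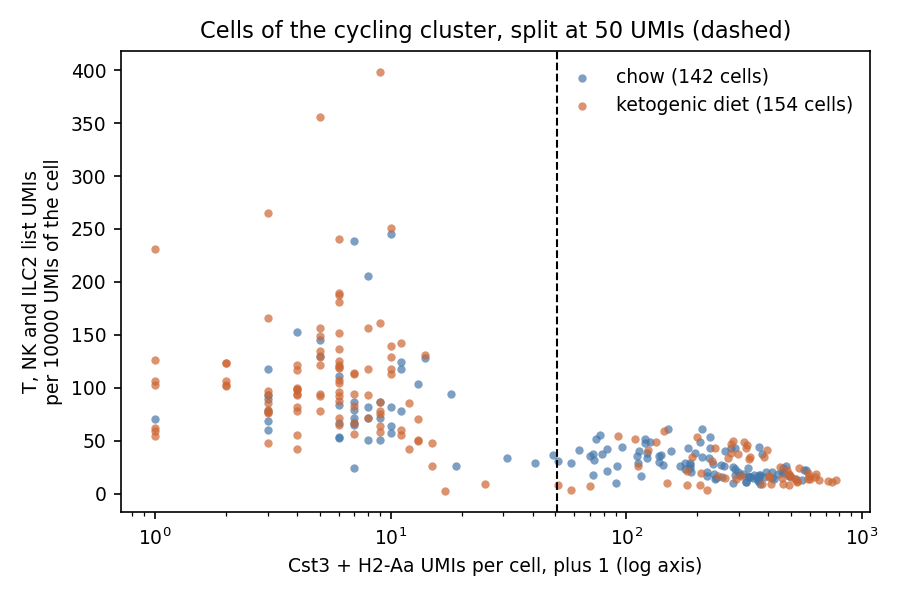
Each point is 1 cell of cluster 10, with its UMIs of Cst3 and H2-Aa added, plus 1, on a log axis, against its UMIs of the T cell, NK and ILC2 lists per 10000 UMIs of the cell. Blue points are 142 chow cells and orange points 154 ketogenic cells. The dashed line marks the limit of 50 UMIs, left of which lie the 43 and 93 cycling lymphoid cells. Few cells lie just left of it, and more lie just right of it.

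In the chow library, 4 of the 43 cells went against the lymphoid label by their nearest cluster once myeloid lists were added to the lineage genes, and no ketogenic cell did by that measure. Of these 4, 3 were nearest to cluster 8 (led by Retnla, Fcrls and Lyz1) and 1 to cluster 3 (macrophage-like, led by Apoe), and all 4 had 0 UMIs of Cd3e. They also held 4 of the 5 highest values inside the Cst3 and H2-Aa limit. Of the 4, the cell nearest cluster 3 held 238 UMIs of Retnla and 94 of Lyz2, and another held 22 of Il22, a cytokine made by type 3 lymphocytes. A ketogenic cell nearest cluster 4, with 18 CD3 UMIs, held 137 UMIs of the macrophage list, more per UMI than any chow cell. Some of the results that these cells moved are given with and without them. Dendritic cell genes, which include Cst3 and H2-Aa, summed to 5157 CPM under chow and 1891 under KD (3057 and 1891 without the 4 cells, 6711 and 5041 in non-cycling lymphoid cells). Of 10 measured dendritic genes 5 were 2-fold lower under KD and 1 was 2-fold higher, with a median log2 ratio of -1.04, where 8.75% of genes were 2-fold lower and 9.86% higher. Without the 4 cells 1 of 9 was 2-fold lower and none higher, with a median of -0.45. Xcr1 stood at 0 in the chow cells, and Flt3 and Zbtb46 in the ketogenic cells. Of other cell types, 9 of 11 stromal, endothelial and adipocyte genes stood at 0 in both libraries, including Col1a1, Dcn, Cdh5 and Adipoq, and neutrophil genes summed to 7 UMIs under chow and 8 under KD. Hemoglobin and erythroid genes summed to 6 and 34 UMIs.

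The cycling lymphoid cells held more UMIs than non-cycling lymphoid cells. The chow cells had a median of 5329 UMIs (range 2514 to 13625) and the ketogenic cells 7988 (2216 to 24747), against 2468.5 and 3208 in the lymphoid clusters that were not cycling. Summed over cells this gave 262347 UMIs for chow and 778875 for KD, so the chow values are the less precise. Mitochondrial transcripts made up 2.56% and 2.06% of UMIs. Of the whole series, 41 cell barcodes occurred in both libraries, and none of them was a cycling lymphoid cell. By t-SNE position, 1 chow and 7 ketogenic cells lay more than 15 units from the median of the set, and 1 of these held 338 UMIs of Jchain.

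Cycling lymphoid cells made up 0.965% of the clustered chow cells (43 of 4458, interval 0.699 to 1.30) and 1.67% of the clustered ketogenic cells (93 of 5559, 1.35 to 2.05). The ratio of these shares, KD over chow, was 1.73 (1.20 to 2.55). The ketogenic library also held more lymphoid cells as a whole. Counted over lymphoid clusters and members only, 1.77% and 2.05% were cycling, and the ratio was 1.16 (0.797 to 1.70), an interval that includes 1. The larger share among all leukocytes and the larger share of lymphoid cells in the library cannot be told apart here. The other cells of cluster 10, which are antigen-presenting, went the opposite way, from 2.22% (99 cells) to 1.10% (61 cells), a ratio of 0.494 (0.353 to 0.687). Lymphoid cells thus formed 30.3% of the cycling cluster under chow (22.9 to 38.5) and 60.4% under KD (52.2 to 68.2).

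To describe their lineage, each cell was set beside the summed profiles of the 7 lymphoid clusters over 94 lineage genes, none of them a cell cycle gene, and given the cluster with the highest multinomial likelihood. On cells of the clusters themselves that were kept out of the profiles, between 74.2% (cluster 7) and 95.1% (cluster 0) were given back to their own cluster. Under chow 12 of 43 cells (27.9%, 15.3 to 43.7) were nearest cluster 0, whose leading genes include Il5 and Csf2 and which is ILC2-like. Under KD 6 of 93 cells (6.45%, 2.40 to 13.5) were, a ratio of shares of 0.231 (0.0712 to 0.666). Of ILC2-like cells, cycling cells included, 1.39% were cycling under chow (12 of 866) and 0.456% under KD (6 of 1316), a ratio of 0.329 (0.101 to 0.947). ILC2-like cells were also less frequent among the non-cycling lymphoid cells of the ketogenic library, at 29.4% against 35.8%.

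Cluster 2, a T-like cluster led by Cd8b1, Trac and Cd3d, took the largest share in both libraries. It was the nearest cluster of 14 chow cells (32.6%, 19.1 to 48.5) and 41 ketogenic cells (44.1%, 33.8 to 54.8), although it held only 9.90% and 18.4% of the non-cycling lymphoid cells. Relative to cluster 2 itself, cycling cells made up 5.60% under chow (3.10 to 9.22) and 4.76% under KD (3.43 to 6.40), a ratio of 0.849 (0.454 to 1.69). Cluster 4, T-like with killer lectin receptors of the Klra family, was nearest to 1 chow cell (2.33%, 0.0589 to 12.3) and 14 ketogenic cells (15.1%, 8.48 to 24). Against all cells of that cluster, cycling ones were 0.370% and 2.65%, a ratio of 7.15 with a lower bound of 1.09 that rests on the single chow cell. The NK-like cluster 1 was nearest to 7 (16.3%) and 18 (19.4%) cells, ratio 1.19 (0.474 to 3.37). Of the 4 chow cells nearest a myeloid cluster, 2 were counted for cluster 1, 1 for cluster 7 and 1 for cluster 11. The chow shares of these clusters are lower without them. Without T cell receptor and CD3 genes the ketogenic shares were 9.68% for cluster 1 and 25.8% for cluster 4. The Treg-like cluster 7 (Foxp3, Ctla4, Ikzf2) was nearest to 5 and 7 cells, the γδ T-like cluster 11 (Trdc, Cd163l1) to 4 and 5, and the B- and plasma-like cluster 9 to 0 and 2. The 0 of 43 chow cells for cluster 9 allows a share of up to 6.98% at 3 counts, and the exact interval reaches 8.22%. B cells carry MHC class II, which the H2-Aa limit selects against, and the part of the limit in this share was not tested. The B cell genes Ms4a1 and Cd79a had 1 and 9 UMIs in the ketogenic cycling lymphoid cells and 33 and 53 in the other ketogenic cells of cluster 10, and under chow 1 and 1 against 4 and 0.

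**Figure D2:**
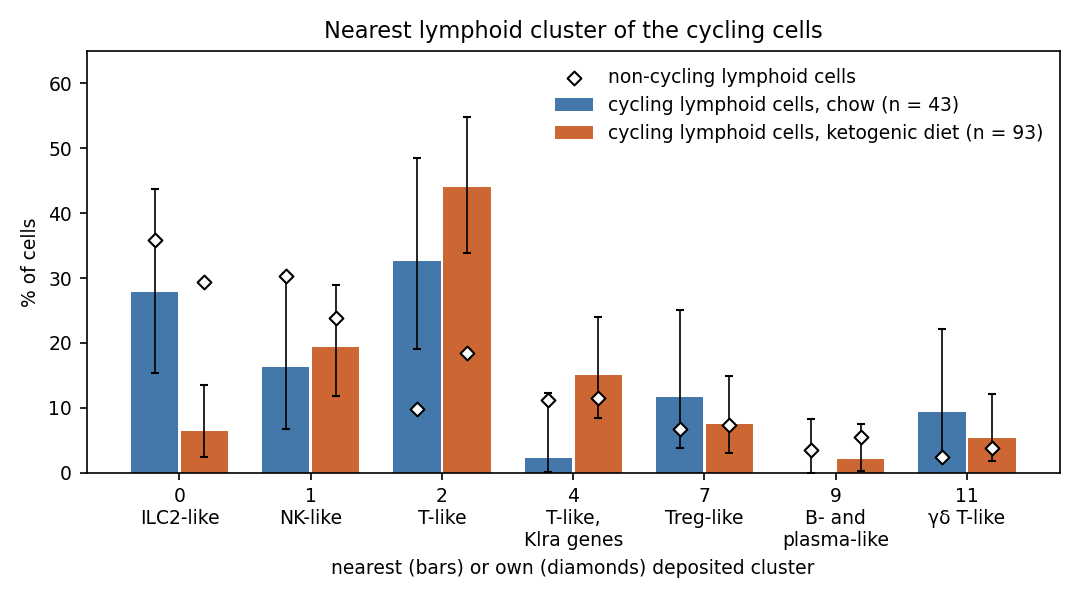
Bars give the percent of cycling lymphoid cells nearest each lymphoid cluster, blue for chow (n = 43) and orange for the ketogenic diet (n = 93), with exact 95% binomial intervals for counting error. White diamonds give the percent of non-cycling lymphoid cells in that cluster; in both libraries cluster 2 stood above its diamond, and under KD cluster 0 stood below it, at 6.45% against 29.4%.

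Lineage was also described by transcripts counted cell by cell. At least 2 UMIs of Cd3e, Cd3d and Cd3g were present in 22 of 43 chow cells (51.2%, 35.5 to 66.7) and 67 of 93 ketogenic cells (72.0%, 61.8 to 80.9). In type 1 conventional dendritic cells (cDC1, cluster 6), which lack CD3 and had median depths of 7906 and 9922 UMIs, the background was 3.26% and 13.5%. With every cell thinned to 1699 UMIs, the shares were 40.8% and 56.7%, against 0.459% and 2.55% in cDC1. CD3 with Ncr1 or Klrb1c, receptors of NK cells, occurred in 1 chow cell (2.33%) and 23 ketogenic cells (24.7%, 16.4 to 34.8), with 0.326% and 3.10% in cDC1. After thinning these shares were 0.856% and 6.74%. Gata3 or Il1rl1, the ILC2 master regulator and IL-33 receptor, without CD3 or NK receptors occurred in 13 chow cells (30.2%, 17.2 to 46.1) and 5 ketogenic cells (5.38%, 1.77 to 12.1). The cDC1 background of that set was 12.7% and 10.7%. Few ketogenic cells could enter the set, because 72.0% held at least 2 CD3 UMIs and another 19.4% held NK receptors. The ketogenic share and its cDC1 background are therefore not like for like. Thinned, the set made up 26.0% and 8.79%, against 4.35% and 4.75% in cDC1.

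Among cells with CD3, those with Cd4 and no Cd8a or Cd8b1 numbered 9 under chow and 21 under KD, and those with Cd8a or Cd8b1 and no Cd4 numbered 3 and 15. Both kinds were found in 0 and 5 cells. Another 10 and 26 had neither, which at this depth need not mean that the coreceptors were absent. In cDC1 the Cd4 set made up 0.651% and 1.69%, the Cd8 set 0.326% and 1.69%, and the set with neither 2.28% and 10.1%. Foxp3, the regulator of regulatory T cells, was found with CD3 in 2 and 4 cells (cDC1 0 of 307 and 4 of 355), and Trdc, the constant chain of the γδ receptor, in 4 and 11. The Trdc set was 9.30% of the chow cells (2.59 to 22.1) and 11.8% of the ketogenic cells (6.05 to 20.2), and 6.10% and 6.62% after thinning, with at most 0.278% in thinned cDC1. With 1 library per diet, these intervals over cells cannot settle whether the γδ share differed between diets, and this was not tested.

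Replication and mitosis transcripts were summed to describe the balance of phases, and no cell was assigned to a phase. The 38 replication genes summed to 1098 UMIs under chow and 3697 under KD, and the 56 measured mitosis and spindle genes to 2311 and 6072. The ratio of replication to mitosis UMIs was 0.475 (0.442 to 0.511) under chow and 0.609 (0.584 to 0.634) under KD. The intervals of this ratio count UMIs and leave out the spread between cells, so they are too narrow for comparing sets of cells. Cells with more replication than mitosis UMIs numbered 10 of 43 (23.3%, 11.8 to 38.6) and 34 of 93 (36.6%, 26.8 to 47.2), and these intervals overlapped. The antigen-presenting cells of the same cluster had lower ratios, 0.336 (0.321 to 0.352) and 0.541 (0.516 to 0.568), and there too the ketogenic value was the higher. Within the cells nearest cluster 2 alone, the ratio was 0.452 (0.397 to 0.513) under chow and 0.654 (0.614 to 0.697) under KD. It was 0.508 (0.445 to 0.580) and 0.554 (0.469 to 0.653) in cells nearest cluster 0, and 0.342 (0.271 to 0.428) and 0.460 (0.417 to 0.507) in those nearest cluster 1. Of the 7 chow cells nearest cluster 1, 2 were among the 4 nearest a myeloid cluster. They held 1 and 2 replication UMIs and 30 and 51 mitosis UMIs, so the chow ratio is higher without them and nearer the ketogenic value. In the 4 and 5 cells nearest cluster 11 the ratio was the higher under chow, at 0.952 (0.735 to 1.23) and 0.679 (0.584 to 0.789). A chow cell among these, with 50 replication and 38 mitosis UMIs, was nearest a myeloid cluster. Without it the chow ratio is lower but still above the ketogenic one.

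Cell by cell, replication transcripts ran from 0 to 94.0 per 10000 UMIs under chow (median 43.4) and from 0 to 144 under KD (median 47.8). Mitosis transcripts ran from 23.0 to 166 (median 83.3) and from 4.48 to 216 (median 77.4). Across cells the levels of the 2 lists ran against each other, with Pearson's r of -0.57 and Spearman's rho of -0.55 over 43 chow cells, and -0.32 and -0.33 over 93 ketogenic cells. Cells share a library and a depth, so these are descriptions without a p-value.

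**Figure D3:**
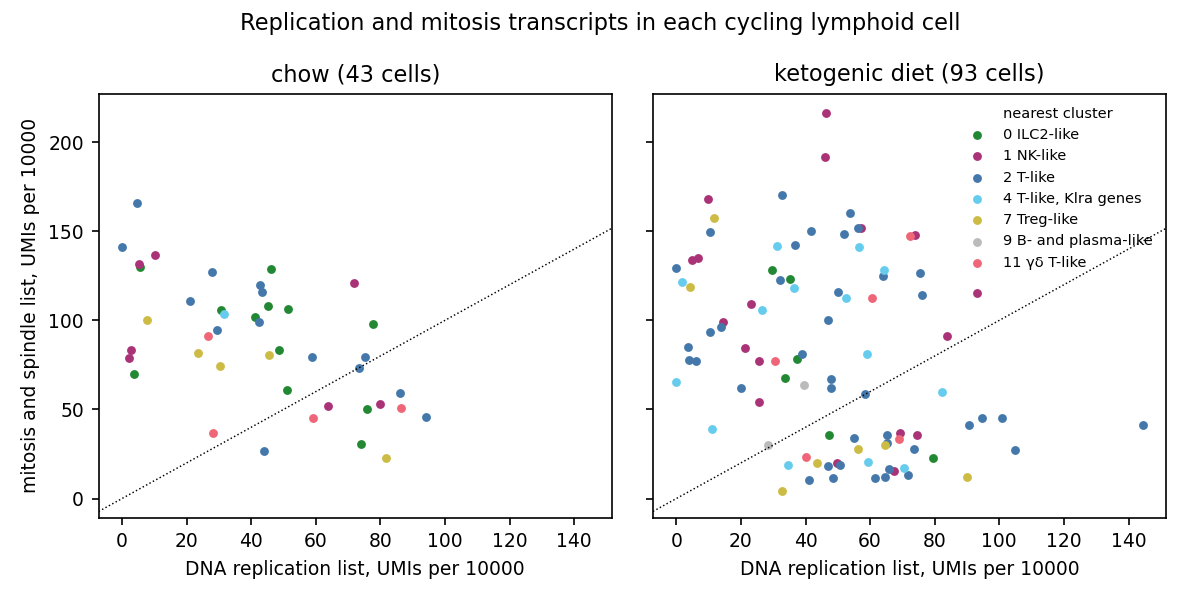
Each point is 1 cycling lymphoid cell, with UMIs of the DNA replication list (x axis) and of the mitosis and spindle list (y axis) per 10000 UMIs of the cell, coloured by nearest cluster; the dotted line marks equal levels. Cells below the line, 10 of 43 under chow and 34 of 93 under KD, held more replication than mitosis transcripts, and most nearest-cluster colours occur on both sides of it.

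Single genes of the 2 lists varied around these sums without any large shift. Of 38 replication genes, 26 were higher and 12 lower under KD, with a median log2 ratio of 0.16 against 0.02 over the 7361 genes with at least 10 UMIs. None was 2-fold higher and 1 was 2-fold lower, where 9.86% and 8.75% of all genes were. Some genes were picked here after their values were seen. All 6 subunits of the replicative helicase ring were higher: Mcm3 stood at 91.5 CPM under chow and 180 under KD (ratio 1.97, 1.27 to 3.17), Mcm5 at 80.0 and 157 (1.96, 1.22 to 3.28), Mcm7 at 107 and 176 (1.65, 1.09 to 2.57) and Mcm6 at 111 and 168 (1.52, 1.01 to 2.36), with Mcm2 and Mcm4 at ratios of 1.70 and 1.88. Gins1, of the helicase-associated GINS complex, stood at 41.9 and 41.1 CPM, and the 2-fold lower gene was Mcm10, a replication initiation factor, at 22.9 and 10.3 CPM (6 and 8 UMIs; 0.449, 0.137 to 1.57). Pcna, the sliding clamp of the DNA polymerase, was lower, at 518 and 404 CPM (0.780, 0.636 to 0.961). Dut, which removes dUTP, stood at 381 and 453 CPM, with an interval of the ratio (0.95 to 1.5) that includes 1. Of 56 mitosis genes, 24 were higher and 32 lower, with a median of -0.09, 1 at least 2-fold higher and 2 at least 2-fold lower. Birc5 stood at 759 and 502 CPM (0.662, 0.557 to 0.789), Ube2c at 694 and 401 (0.577, 0.479 to 0.697), and Mki67 at 324 and 316 (0.975, 0.759 to 1.26).

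Histone, chromatin and tubulin genes had a median of -0.08, with 4 of 21 at least 2-fold lower, where 8.75% of all genes were, and none 2-fold higher. Many histone genes are near-identical copies without poly(A) tails, so their single counts are uncertain. DNA repair and checkpoint genes had a median of -0.14 (9 higher, 11 lower of 20).

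Set beside non-cycling lymphoid cells weighted to the same mix of nearest clusters, 276 of 2753 genes with at least 50 UMIs (10.0%) stood 2-fold or more above in both libraries and 12 (0.436%) below. The cells were set apart by clustering of expression, and the genes it used are not given in the sources used here. This comparison is therefore a description without a test. The minimum was counted in the cycling cells alone, which keeps out genes that are low there, so the balance of higher to lower genes is partly set by it. Of the replication list 37 of 38 genes were 2-fold above in both libraries, of the mitosis list 55 of 56, of the histone, chromatin and tubulin list 18 of 21, and of the repair list 17 of 20. The median log2 differences were 2.52 and 2.87 for replication and 5.39 and 5.91 for mitosis, chow and KD in that order. Top2a stood at 694 CPM against 11.2 in the chow library and 564 against 8.70 in the ketogenic one. Pcna, which resting cells also express, stood at 518 against 99.8 and at 404 against 86.9. The exception in the mitosis list was Pttg1 (securin, which guards sister chromatid cohesion), at 53.4 against 112 CPM under chow and 44.9 against 102 under KD. Of 19 nucleotide and one-carbon genes 8 were above, and of 15 glycolytic genes 1 was, Tpi1. These lists were counted over genes with at least 10 UMIs, of which 8.57% stood 2-fold above in both libraries and 0.516% below. The exception in the replication list was Gins1 (a subunit of the GINS helicase complex), at log2 differences of 0.10 and 1.30.

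Genes outside the fixed cell cycle lists that led this comparison were also known from division. Pbk (a mitotic kinase) stood at 64.8 CPM against 0.420 under chow and 104 against 0.917 under KD. Ska1 and Fam64a (a regulator of the metaphase to anaphase transition), Esco2 (cohesin acetylation), Neil3 (a DNA glycosylase), Fbxo5 (an inhibitor of the anaphase-promoting complex), Kif15, Sgol1, Casc5, Cep55, Mxd3 and 2810417H13Rik made up the rest of the leading 12, at log2 differences from 5.26 (Cep55 under chow) to 7.88 (Ska1 under KD). The 12 genes 2-fold below included Bcl2 (the anti-apoptotic protein), at 87.7 against 236 CPM and 130 against 350. Il7r (the IL-7 receptor chain that supports resting lymphocytes) stood at 87.7 against 271 and 68.0 against 164, and Ccl5 (a chemokine of effector lymphocytes) at 1460 against 3687 and 2721 against 6060. Samhd1, which breaks down deoxynucleotides, stood at 64.8 against 191 and 73.2 against 186. The others were Btg1, Gm26740, Fasl, Ypel3, Spry2, Rrad and the near-identical ribosomal genes Rps27 and Rps27rt, whose reads cannot be assigned with certainty.

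Regulators of entry into the cycle did not all stand above the non-cycling cells. Ccna2 (cyclin A) stood at 175 against 1.37 CPM and 200 against 0.800, and Cdk4 at 183 against 68.3 and 255 against 104. Ccnd2 (cyclin D2) was below, at 133 against 515 under chow and 325 against 626 under KD, while Ccnd3 stood at 156 against 187 and 307 against 295. Cyclin D1 (Ccnd1) was at 0 UMIs in the chow cells and 2 in the ketogenic cells, against 85 and 77 in the antigen-presenting cells of the same cluster. The inhibitors Cdkn3 (111 against 1.69 and 71.9 against 1.09) and Cdkn2c (107 against 17.1 and 130 against 23.2) were above in both libraries, and Btg1, an anti-proliferative factor, was below, at 602 against 1279 and 543 against 1424. No gene of the T cell, NK, CD4, CD8, γδ or ILC2 lists was 2-fold above in both libraries, and among them Il7r was 2-fold below in both.

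**Figure D4:**
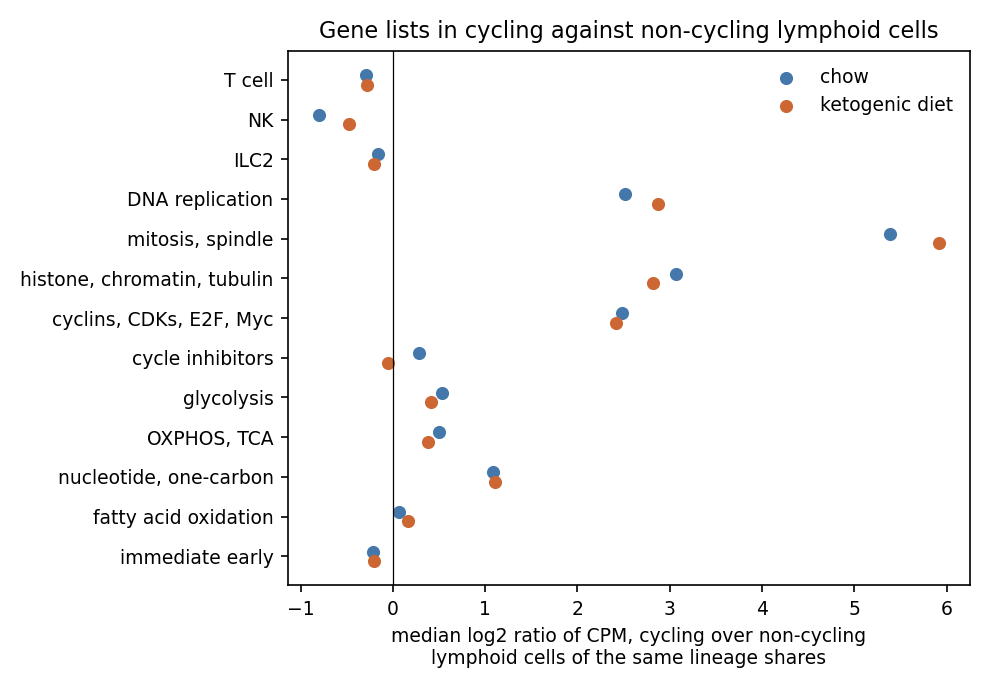
Median log2 ratio of CPM for each gene list, cycling lymphoid cells over non-cycling lymphoid cells of the same lineage shares, with 1 point for chow (blue) and 1 for the ketogenic diet (orange). The replication, mitosis, histone and cyclin lists stood at 2.42 to 5.91, the cycle inhibitors at 0.29 and -0.06, nucleotide and one-carbon genes at 1.09 and 1.11, and the T cell, NK and ILC2 lists below 0.

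Against the antigen-presenting cells of the same cluster, a comparison that the Cst3 and H2-Aa limit shaped, all 12 T cell genes stood 2-fold above in both libraries, as did 13 of 16 NK and 11 of 13 ILC2 genes, where 10.7% of 9598 genes with at least 10 UMIs did. Of 14 dendritic cell genes other than Cst3 and H2-Aa, on which the cells were split, 13 stood 2-fold below in both, where 7.01% of genes did. Trac stood at 252 CPM against 13.4 under chow and 524 against 25.8 under KD. Cell cycle genes differed less between the cycling populations, with median log2 differences of 0.92 and 0.55 for replication and 0.37 and 0.45 for mitosis.

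Between the diets, 208 of 2753 genes with at least 50 UMIs (7.56%) differed 2-fold or more, 123 higher under KD (4.47%) and 85 lower (3.09%), and the median log2 ratio was 0.08. The split depended on the setting. With 5 instead of 0.5 added to each count it was 38 higher and 100 lower. With both libraries weighted to the same shares of nearest clusters it was 127 and 55. That weighting left out cluster 9, which no chow cell was nearest, and with it 2 ketogenic cells. The chow part of cluster 4 in it rests on 1 cell. Nearest clusters were assigned from the T cell, NK, ILC2 and other lineage lists, so shifts of those lists under it are partly built in.

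Lists were counted over genes with at least 10 UMIs, of which 51.7% were higher under KD, 9.86% by 2-fold or more, and 8.75% were 2-fold lower. T cell genes were higher under KD as a group: 12 of 12 were, 4 of them 2-fold or more (33.3%), with a median log2 ratio of 0.85. Trbc1, a constant chain of the αβ receptor, stood at 297 CPM under chow and 714 under KD (ratio 2.40, 1.89 to 3.08), and Trac at 252 and 524 (2.08, 1.60 to 2.74). Cd6, a T cell adhesion receptor, had 3 UMIs under chow and 59 under KD, in 3 and 25 cells (6.62, 2.16 to 33.0). At equal shares of nearest clusters the T cell median was 0.56, with 10 of 12 higher. The same list was higher in non-cycling lymphoid cells too, at 2380 and 3852 CPM summed.

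NK genes were higher under KD in 13 of 16 cases, 8 of them 2-fold or more, with a median of 0.97. Without the 4 chow cells nearest a myeloid cluster 4 of 16 were 2-fold higher and 1 lower, with a median of 0.84. Ncr1 (the NK receptor NKp46) had 12 UMIs in 6 chow cells and 139 in 31 ketogenic cells (3.90, 2.16 to 7.73). Gzmb (granzyme B, a cytotoxic protease) stood at 45.7 and 202 CPM (4.41, 2.45 to 8.71), while Gzma was at 496 and 399 (0.806, 0.655 to 0.997). Klrk1 (NKG2D) stood at 122 and 307 CPM (2.52, 1.73 to 3.76). At equal shares of nearest clusters the NK median was 0.31, with 2 of 16 genes 2-fold higher and 1 lower. The Klra receptors are near-identical copies, and their single counts are uncertain.

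ILC2 genes were lower under KD in 12 of 13 cases, 7 of them 2-fold or more, with a median of -1.22. Areg (amphiregulin, a tissue-repair growth factor) stood at 759 CPM in the chow cells and 326 in the ketogenic cells (0.430, 0.356 to 0.520), and was detected in 24 of 43 and 26 of 93 cells. Rora (a transcription factor needed for ILC2) stood at 252 and 93.7 CPM (0.373, 0.263 to 0.528). Hes1 (a Notch target) had 34 UMIs in 8 chow cells and 12 in 8 ketogenic cells. At equal shares of nearest clusters the median was -0.08, with 6 of 13 genes higher, and 2 past 2-fold in either direction. The genes of this list helped assign the nearest clusters, so this shift was partly built in. Csf2 (GM-CSF, made by activated lymphocytes) had 87 UMIs in 11 chow cells and 33 in 11 ketogenic cells, a log2 ratio of -2.96, and -1.85 at equal shares.

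Cyclins, CDKs and regulators of cell cycle entry had a median of 0.12 (13 of 21 higher, 2 past 2-fold, or 9.52%, against 9.86% of all genes). The genes past 2-fold were Ccnd2 and Myc. Ccnd2 had 35 UMIs in 20 chow cells and 253 in 72 ketogenic cells (133 and 325 CPM, ratio 2.43, 1.71 to 3.57), with a log2 ratio of 1.27 and 1.08 at equal shares of nearest clusters. Ccnd3 stood at 156 and 307 CPM (1.96, 1.41 to 2.81), and Myc, a driver of growth and cell cycle entry, had 3 UMIs in 3 chow cells and 45 in 22 ketogenic cells (5.05, 1.62 to 25.4). In the non-cycling lymphoid cells the log2 ratios of Ccnd2, Ccnd3 and Myc were 0.26, 0.39 and 0.46. Among inhibitors, Cdkn1a (p21) stood at 423 CPM under chow and 160 under KD (0.379, 0.291 to 0.494), and Klf4 at 217 and 83.5 (0.384, 0.265 to 0.558). At equal shares their log2 ratios were -0.60 and -0.67, inside 2-fold, and the list median was 0.09 in place of -0.15.

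Glycolytic genes were higher under KD in 12 of 15 cases, though none reached 2-fold, with a median of 0.29. Summed over the list they stood at 2992 CPM in the chow cells and 4510 in the ketogenic cells, a ratio of 1.51 (1.39 to 1.63), and per cell at a median of 27.9 and 38.1 per 10000 UMIs. Gapdh stood at 884 and 1340 CPM (1.52, 1.31 to 1.75), Ldha (lactate dehydrogenase) at 564 and 883 (1.57, 1.31 to 1.88), and Pkm (pyruvate kinase) at 324 and 625 (1.93, 1.53 to 2.46). At equal shares the list median was 0.54, and without the 4 chow cells nearest a myeloid cluster 0.59. Non-cycling lymphoid cells of the same libraries stood at 2235 and 3286 CPM summed, so the difference was not limited to cycling cells. With the mean over cells in place of the sum the cycling median was 0.15, with 9 of 15 higher.

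Nucleotide and one-carbon genes were higher in 17 of 19 cases, where 51.7% of all genes were higher, with 3 past 2-fold (15.8%, against 9.86% of all genes) and a median of 0.37, and 0.48 at equal shares. Shmt2, the mitochondrial serine hydroxymethyltransferase that feeds one-carbon units to nucleotide synthesis, had 2 UMIs in 2 chow cells and 41 in 29 ketogenic cells (6.91, 1.79 to 58.9). Impdh2 (guanine nucleotide synthesis) stood at 164 and 249 CPM (1.52, 1.09 to 2.17) and Tk1 (thymidine kinase) at 99.1 and 166 (1.67, 1.09 to 2.65), whereas Tyms (thymidylate synthase) stood at 271 and 217 (0.802, 0.604 to 1.07).

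Genes of mitochondrial energy metabolism and of fat and ketone use had medians close to that of all genes. Oxidative phosphorylation and TCA cycle genes had a median of -0.05 (10 of 21 higher, none past 2-fold), and fatty acid oxidation genes -0.02 (7 of 15 higher). Hadhb, a subunit of the mitochondrial trifunctional protein, was 1 gene 2-fold higher, with 8 UMIs in 8 chow cells and 73 in 44 ketogenic cells (3.07, 1.48 to 7.39). Cpt1a, the carnitine transferase that admits fatty acids to mitochondria, was the 1 gene 2-fold lower, at 38.1 and 18 CPM (10 and 14 UMIs; 0.472, 0.195 to 1.19). Of 6 measured ketone metabolism genes 5 were higher, 1 of them 2-fold, with a median of 0.15, and 0.39 at equal shares; without the 4 chow cells 4 of 6 were higher and none 2-fold. Oxct1, which lets cells burn ketone bodies, stood at 53.4 and 61.6 CPM (1.16, 0.626 to 2.27), and Acat1 at 76.2 and 82.2 (1.08, 0.644 to 1.88).

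Immediate early genes, which respond to signalling and to tissue dissociation, were lower under KD in 14 of 16 cases, 6 of them 2-fold or more, with a median of -0.84. Fosb stood at 701 CPM under chow and 254 under KD (0.362, 0.295 to 0.445), Nr4a1 at 873 and 407 (0.466, 0.392 to 0.555) and Egr1 at 217 and 41.1 (0.189, 0.119 to 0.297). At equal shares of nearest clusters the median was -0.13, with 7 of 16 higher. Hspa1a, a heat shock gene of the same list, went the other way, with 3 UMIs under chow and 55 under KD. Interferon-response genes had a median of 0.41 (13 of 14 higher, 3 past 2-fold, or 21.4% against 9.86% of all genes). Over the 6 with at least 50 UMIs it was 0.20, and the sum over the list was lower under KD, at 1029 and 951 CPM (0.924, 0.803 to 1.07); Ifitm3 was the 1 lower gene, at 324 and 20.5 CPM.

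**Figure D5:**
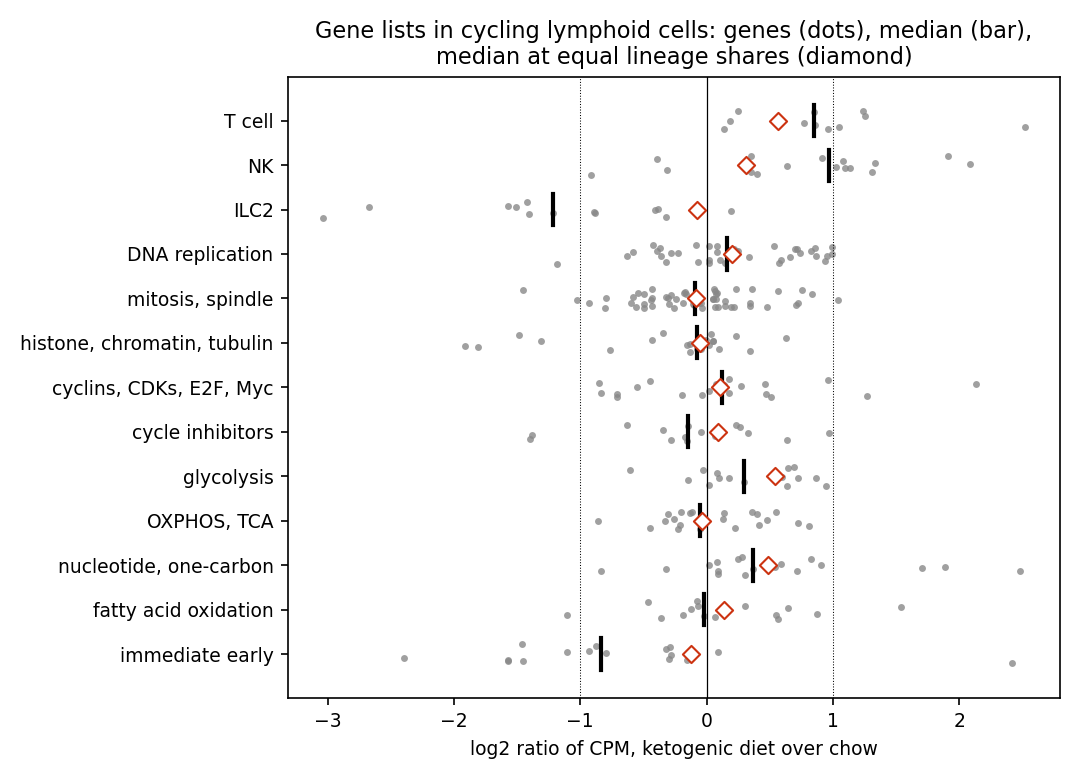
Log2 ratios between diets (KD over chow, from CPM) in the cycling lymphoid cells; grey dots are genes with at least 10 UMIs, black bars the list medians and red diamonds the medians with both libraries weighted to the same shares of nearest clusters. Dotted lines mark 2-fold. The ILC2 median moved from -1.22 to -0.08, a shift partly built in because ILC2 genes helped assign the nearest clusters. The immediate early median moved from -0.84 to -0.13, while the glycolysis median went from 0.29 to 0.54. The weighted values rest in part on few cells, with 1 chow cell nearest cluster 4 and 6 ketogenic cells nearest cluster 0.

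Cytokine and effector genes were higher under KD in 10 of 17 cases and cytokine receptor genes lower in 11 of 15, 4 of them 2-fold (26.7%, against 8.75% of all genes), with a receptor median of -0.38 and -0.15 at equal shares. Ifng (interferon gamma) had 11 UMIs in 6 chow cells and 76 in 35 ketogenic cells (2.33, 1.23 to 4.86), Ccl4 stood at 152 and 324 CPM (2.12, 1.52 to 3.04), and the cytokine and effector median was 0.20, or 0.50 without the 4 chow cells nearest a myeloid cluster. Il2rb, the chain shared by the IL-2 and IL-15 receptors, stood at 80.0 and 190 CPM (2.37, 1.5 to 3.95), while Il2ra, the high-affinity IL-2 receptor chain, stood at 164 and 55.2 (0.337, 0.216 to 0.526). Tnfrsf4 (OX40, chr4:156013843-156016612 on GRCm38), a co-stimulatory receptor of activated T cells, had 8 UMIs in 4 chow cells and 151 in 22 ketogenic cells (6.36, 3.15 to 15). Its log2 ratio was 2.59, and 2.81 at equal shares. Among T cell activation genes, Cd44 stood at 290 and 118 CPM (0.408, 0.298 to 0.560). The activation list median was 0.75 over 23 genes and -0.02 over the 16 with at least 50 UMIs.

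Several of the largest ratios rested on 1 cell. Cxcl3 had 0 UMIs under chow and 94 under KD, at least 10.6-fold higher against a floor of 3 counts and with an exact lower limit of 8.42, but 86.2% of them were in 1 cell with 35 CD3 UMIs. Jchain (402 UMIs under KD, 23 under chow) and Mzb1 (108 and 1), genes of antibody-secreting cells, had 84.1% and 81.5% of their ketogenic UMIs in 1 and the same cell. Spp1 (osteopontin) had 67.7% of its 96 ketogenic UMIs in a cell with 16 UMIs of Ncr1 and Klrb1c. A ketogenic cell with 18 CD3 UMIs held 106 of the 114 Apoe UMIs. Other genes at the top of the ranking were spread over cells: Fgl2 (187 UMIs in 53 ketogenic cells, 16 in 12 chow cells; 3.94, 2.36 to 7.03), Socs3 (50 in 39; 4 in 4), Gnl3 (49 in 28; 3 in 3) and Cd160 (63 in 30; 5 in 4).

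The lowest ratios were led by Retnla. It had 356 UMIs under chow and 37 under KD (log2 ratio -4.82), with 66.9% of the chow UMIs in 1 of the 4 cells nearest a macrophage-like or unnamed myeloid cluster. Without those 4 cells it was -3.05, Lyz2 went from -3.82 to -2.62, Ccl6 from -4.13 to -3.02 and Ccl9 from -3.62 to -2.54. The macrophage list summed to 1277 CPM in the chow cells and 266 in the ketogenic cells, and to 599 and 266 without the 4 cells. Of the 207 ketogenic UMIs 137 were in 1 cell, and without it as well the values were 599 and 90.7 CPM. In the non-cycling lymphoid cells the same list stood at 1009 and 208 CPM, and Retnla there had a log2 ratio of -3.04. Lyz2 was detected in 37 of 43 chow cells and 35 of 93 ketogenic cells, and Fcgr1 was at 0 in the chow cells and Csf1r in the ketogenic cells. With 10% of UMIs subtracted as free RNA, a share that was assumed and not measured, all 12 lowest genes stayed 2-fold lower, and 145 genes were 2-fold higher and 106 lower in all. Tppp3 (71 UMIs in 10 chow cells, 8 in 8 ketogenic cells), Ccl1 (53 and 11, with 66% of the chow UMIs in 1 cell), Myadm, Furin and Gadd45g completed the 12 lowest, at log2 ratios from -4.64 to -2.15. Furin was at -0.75 at equal shares of nearest clusters.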

How the data were processed

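Per the labels, library construction followed a 10x Genomics protocol. The submitters' processing notes name Cell Ranger, Seurat and the mm10 build with no version or role, and the rule for calling cells is not given in the sources used here. Each library has a matrix of UMI counts, which the authors deposited as whole numbers without normalisation. The deposited cluster table gives t-SNE coordinates (a score with no unit, used here only for position) and, per the file headers, clusters at resolution 0.5. Gene positions came from GENCODE M21 on GRCm38, in which 28339 of 28692 gene IDs were found.

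UMIs were summed over cells and scaled to CPM. Ratios are KD over chow, log2 ratios have 0.5 added to each count, and called genes are those past 2-fold. Intervals are exact: binomial (Clopper-Pearson) for shares, conditional for ratios. A count of 0 allows up to 3 counts. Total depth of the set was 262347 UMIs for chow and 778875 for KD. Members and gene lists were chosen with earlier results of these data known. The rule for named genes took 12 genes from each end of the ranking by ratio (minimum of 50 UMIs), without mitochondrial, immunoglobulin, T cell receptor variable and sex chromosome genes, and up to 4 of the most detected genes of each list; Mcm3, Mcm5, Shmt2, Hadhb, Myc and other list genes outside this rule, and the genes below non-cycling cells, were picked after their values were seen. The E2F spellings were chosen after a first look at matches.

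Lists were described over genes with at least 10 UMIs. Medians did not change when genes at 0 in 1 library were set to their bound. Scrublet (Scanpy 1.11.5) marked 6 chow and 2 ketogenic cells (0.132% and 0.0356%), too few to have worked, and no doublets were removed. Python 3.11.15, SciPy 1.17.1 and pandas 2.3.3 were used, and the calculations were tested on simulated data. Alternatives covered the limit, denominators, depth, doublets, normalisation, minimum counts, added counts, free RNA and cells left out. Some genes of the lists are not reported here.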

Additional observations from a re-analysis of the deposited data

Results flagged for a closer look

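Cells without a deposited cluster held cycling transcripts. Of the 87 unclustered chow cells 13 (14.9%, 8.20 to 24.2) had at least 3 UMIs of Mki67, Top2a and Birc5 together, and of the 55 unclustered ketogenic cells 4 (7.27%, 2.02 to 17.6). Of these, 7 and 4 were nearest a lymphoid cluster. Their mitochondrial share ran from 5.05% to 15.3% under chow and from 5.49% to 7.91% under KD, above the highest cycling lymphoid cell (4.65% and 4.58%).

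Of the genes with at least 50 UMIs, 2 were 2-fold or more apart between diets in the cycling lymphoid cells and 2-fold or more the opposite way in the non-cycling lymphoid cells. The difference was not tested for either. Cxcl3, a chemokine, had a log2 ratio of 5.99 in the cycling cells and -1.28 in the others, with most of its cycling UMIs in 1 cell. Hist1h1b, a linker histone of dividing cells, had -1.31 (25 UMIs under chow, 30 under KD) and 1.07 (3 and 17 UMIs).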

How the results depend on the processing

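No paired analysis was possible because each diet is 1 library. The ratio of shares ran from 1.34 to 1.91 under the other limits, filters and cell sets, and was 1.16 over lymphoid cells only. The value of 1.34 came with a limit of 100 UMIs of Cst3 and H2-Aa, and its interval includes 1. Without T cell receptor and CD3 genes, 9.68% of ketogenic cells were nearest cluster 1 (main value 19.4%) and 25.8% nearest cluster 4 (15.1%). The replication share of the ketogenic cells' replication and mitosis UMIs (37.8%) was 41.7% as a mean over cells and 39.6% in cells nearest cluster 2. Genes past 2-fold numbered 371 higher and 297 lower at a minimum of 20 UMIs, 44 and 39 at 100 UMIs, and 38 higher with 5 added to each count; at equal shares of nearest clusters 55 were lower. At equal shares 3 lists in place of 6 stood 0.5 or more above the median of all genes, and 2 in place of 4 below it. At equal shares Mzb1 turned to -1.07, Jchain to -0.27, the B cell list median to -0.13 and the plasma cell list median to -0.40. That weighting left out the 2 ketogenic cells nearest cluster 9, 1 of which held 338 UMIs of Jchain and 88 of Mzb1. These turns are therefore not a result of equal shares alone. The T cell activation median turned to -0.018 at a minimum of 50 UMIs. With 43 chow cells, genes under about 10 chow UMIs have intervals of several fold, and with 1 library per diet animal-to-animal spread cannot be estimated.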

Other observations

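Outside cluster 10, at least 3 UMIs of Mki67, Top2a and Birc5 were also found in 5 of the 7 other lymphoid clusters, with the highest shares in clusters 9 and 7: in 1 of 82 chow and 6 of 245 ketogenic cells of the B- and plasma-like cluster 9 (1.22% and 2.45%) and in 2 of 160 and 3 of 328 cells of the Treg-like cluster 7 (1.25% and 0.915%). Cluster 2 held 1 of 236 and 2 of 821 such cells, and clusters 0 and 1 held 1 chow cell each and no ketogenic cell. In the cDC1 cluster 6 the shares were 1.63% and 2.82%.

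Il22, a cytokine of type 3 lymphocytes, came from 1 cell in each library, with 22 UMIs in a chow cell and 11 in a ketogenic cell. Both were nearest the γδ T-like cluster 11; they held 0 and 1 CD3 UMIs. When myeloid lists were added, the chow cell was nearest a myeloid cluster.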
